A study of Mus musculus with 6 samples.

Results

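The collagen chains measured in the mouse aorta were all genes whose symbol is Col, a number, a, and a number, with Col17a1 left out, which gave 43 of the 18191 genes. They comprised 11 fibrillar chains, 9 network-forming chains, 9 FACIT chains (fibril-associated collagens with interrupted helices), 6 type VI chains, 2 multiplexins, 3 transmembrane chains, the anchoring fibril chain Col7a1, and Col26a1 and Col28a1. RNA was sequenced from whole aortas of male mice, as 3 libraries of wild type (WT) mice and 3 of mice heterozygous for a knockout of Npr1 (Npr1+/-) made with CRISPR-Cas9, and the libraries are numbered 1 to 3 within each genotype. Npr1 encodes the receptor for atrial and B-type natriuretic peptide, and the age and strain of the mice and the number of aortas in a library are not given in the sources used here.

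Most collagens are secreted proteins, with chains that wind around each other into a stiff helix. In the wall of the aorta, fibrillar collagens of types I, III and V bear load in the media and adventitia, while type IV and type VIII chains form sheets in basement membranes and beneath the endothelium. Type VI chains form beaded filaments around cells, and the multiplexins Col15a1 and Col18a1 carry sugar chains in basement membranes. Smooth muscle cells and fibroblasts are the main sources of collagen in the artery, so the level of a chain in a whole vessel also depends on the cells that the sample holds.

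Total estimated counts lay between 13510970 and 16664343 per library. The deleted gene, Npr1, was at 112, 153 and 152 FPKM (fragments scaled by transcript length and library size) in the WT libraries and at 70.3, 110 and 133 FPKM in the Npr1+/- libraries, so that the genotypes overlapped and the mean normalized CPM (counts scaled to library size) of Npr1+/- was 75.1% of WT. Both libraries numbered 1 stood apart in the genes of 2 cell types. The summed level of 8 smooth muscle markers was 8530 FPKM in WT 1 and 4954 FPKM in Npr1+/- 1, against 13462 to 15029 FPKM in the other 4 libraries. The sum of 6 adipocyte markers was 2720 and 3414 FPKM in these 2 libraries and 431 to 959 FPKM in the others. In Npr1+/- 1, all 8 smooth muscle markers had their lowest value of the 6 libraries, all 11 neuron markers their highest (summed level of 339 FPKM against 68.5 to 83.1 elsewhere), and 6 of 8 Schwann cell markers their highest (102 FPKM against 12.6 to 27.1, with Pmp2 under 3 counts everywhere). The 5 mesothelium markers were also highest there (4.27 FPKM against 0.65 to 1.27). The sum of the endothelium markers did not overlap between genotypes, with 8 markers summing to 157 to 242 FPKM in WT and 269.9 to 356 FPKM in Npr1+/-. Of these, 4 (Pecam1, Vwf, Tie1 and Egfl7) had all Npr1+/- libraries above all of WT, as for 3.9% of all tested genes, while Cdh5, Tek and Kdr overlapped and Erg was lower on average in Npr1+/-, at 11.4 to 16.7 FPKM against 14.6 to 18.8 FPKM. In all libraries 8 chondrocyte markers summed to 17.1 to 27.4 FPKM, most of it Comp, with Matn1 under 3 counts in every library.

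The aorta expressed a few collagens at a high level. Mean levels over the 6 libraries were at least 100 FPKM for 8 chains, 10 to under 100 FPKM for 7, 1 to under 10 FPKM for 13, and under 1 FPKM for 15. Col18a1, the chain that contains endostatin, had the highest mean at 304 FPKM and ranked 252 among all genes. It was followed by Col1a2 (270.4 FPKM), Col3a1 (232 FPKM) and Col1a1 (209.8 FPKM), the chains of types I and III, then by Col6a2 (167 FPKM), Col4a1 (164 FPKM), Col6a1 (131 FPKM) and Col4a2 (112 FPKM). Neighbours in this order did not separate, since Col18a1 ran from 149 to 413 FPKM and Col1a2 from 136 to 379 FPKM between libraries. The 15 chains of at least 10 FPKM held 97.7% of all collagen FPKM.

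The next chains in the order were Col15a1 (64.0 FPKM), Col5a1 (52.3 FPKM), Col5a2 (37.0 FPKM), Col4a5 (36.3 FPKM), Col6a3 (34.8 FPKM), the FACIT chain Col14a1 (32.4 FPKM) and Col4a6 (28.9 FPKM). At the other end, 8 chains had too few counts to be tested, with mean levels of 0.007 to 0.093 FPKM. Among them were the cartilage chains Col2a1, Col9a1, Col9a2, Col10a1 and Col11a1, besides Col6a4, Col24a1 and Col25a1. Col9a2 was under 3 counts in all 6 libraries, and Col10a1, Col24a1 and Col25a1 in 5 of 6. The remaining 35 chains were tested.

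**Figure D1:**
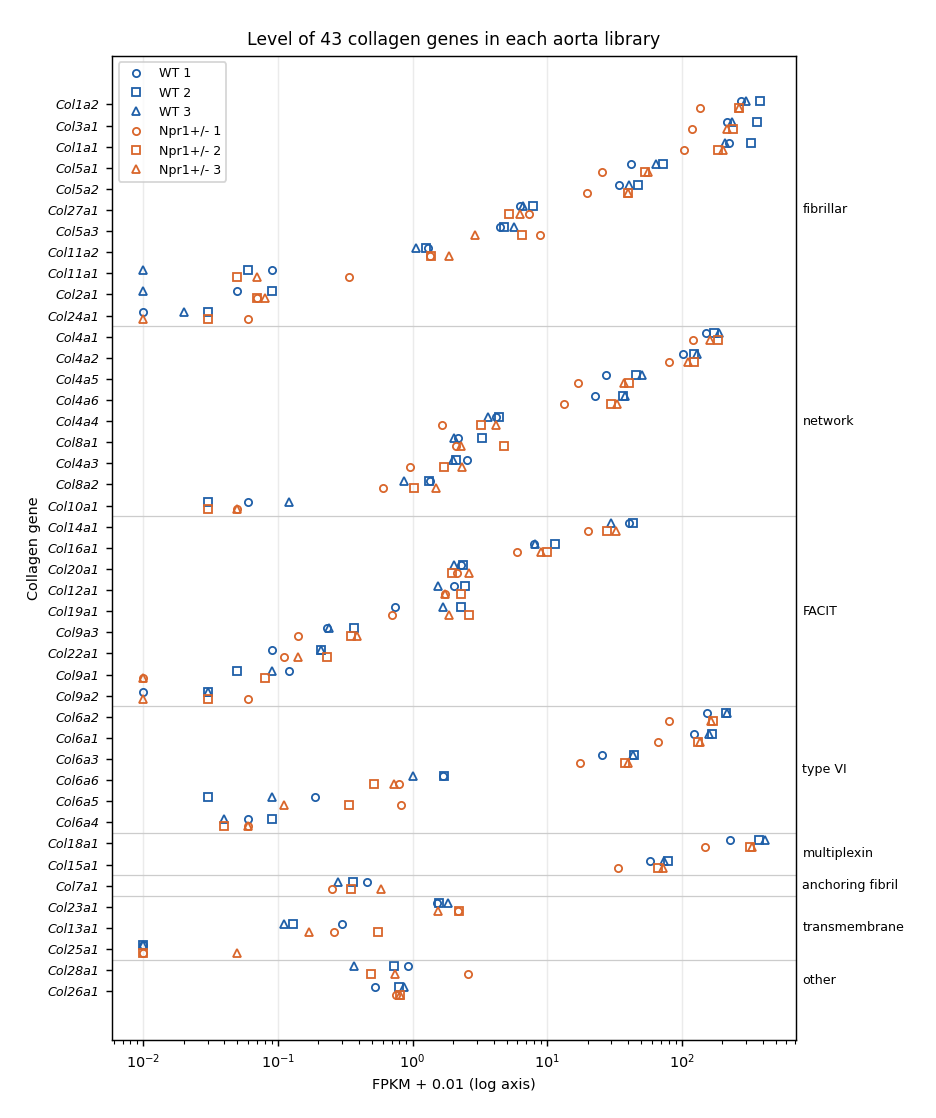
Level of each of the 43 collagen genes in FPKM plus 0.01 on a log axis, grouped by class and ordered by mean level, with WT libraries in blue and Npr1+/- libraries in orange. Each symbol is 1 library, and the open orange circle of Npr1+/- 1 is the lowest of the 6 libraries for all 15 chains with a mean of at least 10 FPKM.

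To ask whether the loss of 1 copy of Npr1 goes with a different collagen expression, the 35 chains were compared between genotypes by edgeR in a fit across all 13938 genes with enough counts. Of the 35 chains, 24 had a negative log2 fold change (Npr1+/- against WT), compared with 48.4% of all tested genes. Their median was -0.25 on the log2 scale, compared with 0.01 over all tested genes. All 15 chains with a mean of at least 10 FPKM were lower on average in Npr1+/- aortas, with a mean CPM of 65.1% to 91.9% of WT. No chain was called by edgeR at an adjusted p under 0.05 with a log2 fold change of at least 0.5 in size, a rule that called 0.0% of all tested genes. Before adjustment, 1 chain, Col6a6, had a p under 0.05, where 2.96% of all tested genes did, and 1.08% with a lower level in Npr1+/-. In a whole aorta, fewer cells of a type and less RNA per cell cannot be told apart. P-values measure the spread between these libraries.

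With the replicate number added to the edgeR model as a block, 11 chains had an unadjusted p under 0.05 (12.4% of all tested genes), 10 of them lower in Npr1+/- (5.09% of all tested genes) and 1 higher (7.36%), and again none was called (0.0%). The 10 lower chains were Col1a1, Col1a2, Col3a1, Col5a1, Col4a5, Col4a6, Col14a1, Col6a1, Col6a2 and Col6a6, and the higher one was Col6a5. DESeq2 without the block called none of the chains (0.0942% of all genes) and gave 3 an unadjusted p under 0.05 (3.24%). DESeq2 with the block called 4 chains, Col1a1, Col1a2, Col3a1 and Col6a2, all lower in Npr1+/-, where it called 1.81% of all genes and 0.616% as lower, and gave 15 chains an unadjusted p under 0.05 (7.2%). Within every replicate number, the Npr1+/- library was the lower one for 13 of 35 chains (16.9% of all tested genes) and the higher one for 3 chains (17.5%). The labels do not say that equal numbers are pairs, so these results and those with the block rest on an assumed pairing.

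**Figure D2:**
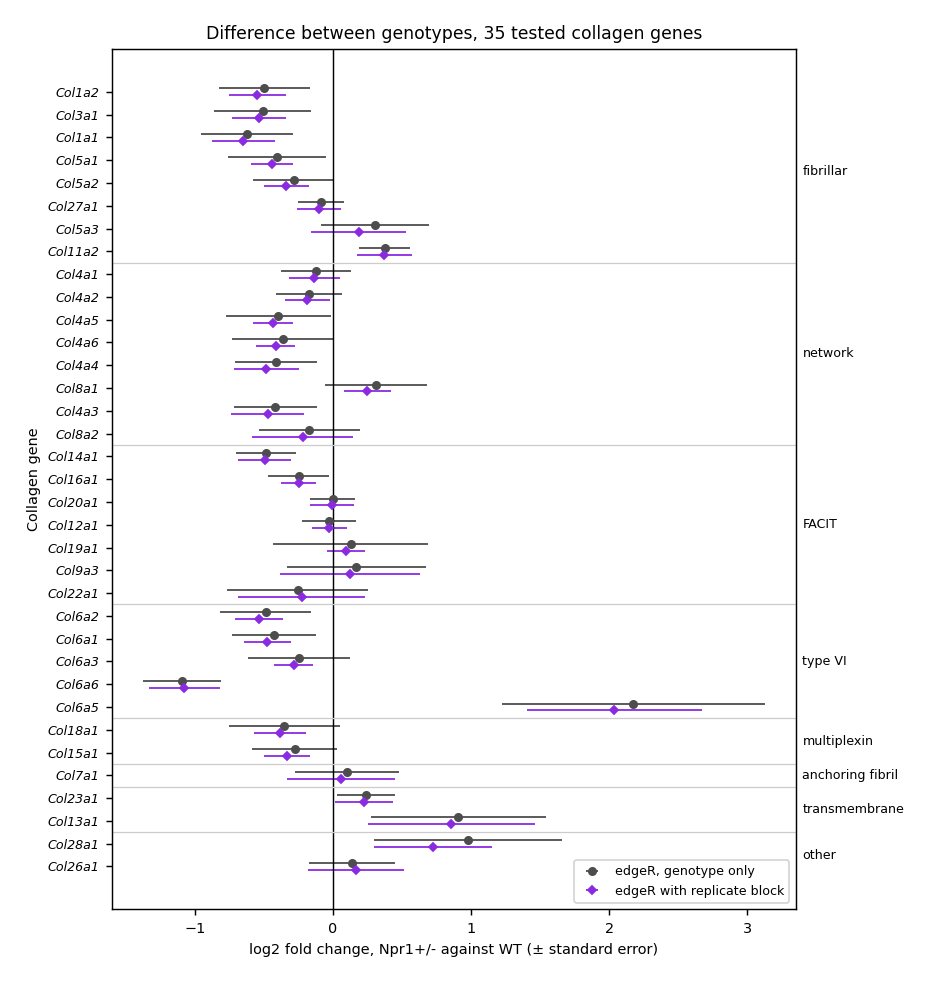
Log2 fold change of the 35 tested collagen genes between Npr1+/- and WT by class, with bars of 1 standard error, from the edgeR fit with genotype alone (grey circles) and with the replicate block (purple diamonds). Points left of 0 are lower in Npr1+/-, as for 24 of the 35 genes, and most of the bars are shorter with the block.

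One library weighed on these differences. Npr1+/- 1 was the lowest of the 6 libraries for 22 of the 35 chains, where 29.6% of all tested genes had their lowest value there, and for all 15 chains of at least 10 FPKM. It was the highest library for 5 chains, as for 28.9% of all tested genes. For 11 of those 15, the libraries numbered 1 were the lowest and the next lowest, as for 24.1% of all tested genes. The exceptions were Col1a1, Col1a2, Col3a1 and Col14a1. Without Npr1+/- 1 the median of the 35 chains was -0.04 on the log2 scale. Without both libraries numbered 1 the median of the tested chains was -0.14, with 23 chains negative. That edgeR fit called no chain (0.00717% of all tested genes) and gave 8 chains an unadjusted p under 0.05 (11.5% of all tested genes). The part that the lower smooth muscle and higher adipocyte and neuron levels of these libraries had in the collagen values was not tested.

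Among the fibrillar chains, 6 of 8 tested were lower on average in Npr1+/-, and the median was -0.35 on the log2 scale. It was -0.20 without Npr1+/- 1 and -0.51 without Npr1+/- 2, and -0.09 by DESeq2 and -0.10 in edgeR without a filter, where the rare chains of the class also enter. Col1a1, which encodes the major chain of type I collagen (chr11:94936224-94953042 on GRCm38), was at 226, 329.8 and 209 FPKM in the WT libraries and at 103, 188 and 204 FPKM in the Npr1+/- libraries. Every Npr1+/- library was thus below every WT library, as for 3.58% of all tested genes, but the gap between WT 3 and Npr1+/- 3 was small. Its mean CPM in Npr1+/- was 65.1% of WT, a log2 fold change of -0.62 (SE 0.33, n = 3 per genotype, edgeR, adjusted p = 0.999, unadjusted p = 0.108). With the block in DESeq2 the value was -0.65 with an adjusted p of 0.025, and in edgeR with the block the unadjusted p was 0.023. It was -0.40 without Npr1+/- 1 and -0.41 without WT 2, and -0.47 without both libraries numbered 1 (edgeR, adjusted p = 0.44).

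Col1a2, the partner of Col1a1 in type I collagen (chr6:4504814-4541544), was at 274, 379 and 299 FPKM in WT and at 136, 269 and 266 FPKM in Npr1+/-. Npr1+/- 2 and 3 lay just under the lowest WT library in FPKM, but the genotypes overlapped in normalized CPM. Its log2 fold change was -0.50 (SE 0.33, edgeR, adjusted p = 0.999), and DESeq2 with the block gave -0.55 with an adjusted p of 0.045. Without Npr1+/- 1 it was -0.27 by edgeR, and without both libraries numbered 1 it was -0.35. Col3a1, the single chain of type III collagen (chr1:45311538-45349706), was at 218, 364 and 238 FPKM in WT and at 118, 239 and 215 FPKM in Npr1+/-. Here WT 2 stood above the other libraries, Npr1+/- 1 below them, and the rest overlapped. The log2 fold change of Col3a1 was -0.51 (SE 0.35, edgeR, adjusted p = 0.999), and DESeq2 with the block gave -0.53 with an adjusted p of 0.034. By edgeR it was -0.28 without Npr1+/- 1, -0.27 without WT 2 and -0.41 without both libraries numbered 1.

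Type V collagen controls the diameter of type I fibrils. Its chain Col5a1 was at 41.8, 73.0 and 64.2 FPKM in WT and at 25.5, 53.0 and 56.2 FPKM in Npr1+/-, with a log2 fold change of -0.41 (SE 0.35, edgeR, adjusted p = 0.999, unadjusted p of 0.021 with the block). The genotypes overlapped, and in both of them library 1 was the lowest. Without Npr1+/- 1 the value was -0.15, and without both libraries numbered 1 it was -0.34. Col5a2 had the same order of libraries within WT, at 34.4, 47.4 and 40.3 FPKM, and was at 19.8, 40.2 and 40.0 FPKM in Npr1+/-. The third type V chain, Col5a3, went the other way between genotypes, with 4.45 to 5.65 FPKM in WT and 2.90 to 8.84 FPKM in Npr1+/-, whose range enclosed that of WT. Col11a2, a type XI chain present at a low level, was at 1.29, 1.25 and 1.06 FPKM in WT and at 1.35, 1.37 and 1.85 FPKM in Npr1+/-. It was the only tested chain with all 3 Npr1+/- libraries above all 3 WT libraries, as for 3.9% of all tested genes, and its log2 fold change was 0.38 (SE 0.19, edgeR, adjusted p = 0.999). Col27a1, best known from cartilage, was at 5.20 to 7.86 FPKM with a log2 fold change of -0.09.

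Sequences upstream of the start were taken from RefSeq (GRCm38.p6) to show how differently 2 fibrillar genes that were lower together in Npr1+/- 1 begin. The 250 bases before the start of Col3a1 have a GC content of 35.2% and no CG pair, and those of Col5a1 have a GC content of 76.4% and 28 CG pairs. These are the lowest and the highest GC content of the 37 upstream windows found for collagen genes, so the contrast is not typical of the family. All 15 abundant chains, not only these genes, were lowest in Npr1+/- 1. Capitals mark TATAAA in Col3a1 and GGGCGG (the GC box, on either strand) in Col5a1, each written 5′ to 3′ on the strand of the gene.
Col3a1 (chr1:45311288-45311537, plus strand): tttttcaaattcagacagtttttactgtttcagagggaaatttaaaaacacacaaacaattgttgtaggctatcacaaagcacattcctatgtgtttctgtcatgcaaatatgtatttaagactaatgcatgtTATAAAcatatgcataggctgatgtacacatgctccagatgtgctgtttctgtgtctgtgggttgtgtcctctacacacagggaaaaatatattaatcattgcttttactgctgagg
Col5a1 (chr2:27886175-27886424, plus strand): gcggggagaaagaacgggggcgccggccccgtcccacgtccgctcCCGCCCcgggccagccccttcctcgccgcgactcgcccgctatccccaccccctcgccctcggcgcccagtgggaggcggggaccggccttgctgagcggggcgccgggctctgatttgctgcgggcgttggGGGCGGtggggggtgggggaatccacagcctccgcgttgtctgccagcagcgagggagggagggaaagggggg
A match describes the letters of a window and is not a site of binding.

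Of the network-forming chains, 7 of 8 tested were lower on average in Npr1+/-, with a median of -0.27 on the log2 scale, and 7 of the 8 had their lowest value in Npr1+/- 1. The median was -0.06 without that library, -0.10 without both libraries numbered 1 and -0.51 without Npr1+/- 3. Col4a1 and Col4a2 form the common type IV collagen of basement membranes, that of the endothelium included, and the part of the higher endothelial markers of Npr1+/- in their values was not tested. Col4a1 (chr8:11198423-11312826) was at 151, 174 and 188 FPKM in WT and at 122, 187 and 161 FPKM in Npr1+/-, so that the genotypes overlapped fully apart from Npr1+/- 1. Its log2 fold change of -0.12 (SE 0.25, edgeR, adjusted p = 0.999) was the smallest in size of the 15 abundant chains. The value was 0.00 without Npr1+/- 1 and -0.07 without both libraries numbered 1. Col4a2 behaved alike, with 103, 124 and 129.95 FPKM in WT and 80.3, 122 and 112 FPKM in Npr1+/-.

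Col4a5 and Col4a6, the chains of the type IV collagen found around smooth muscle, differed more between libraries. Col4a5 (chrX:141475385-141689234) was at 27.2, 45.5 and 50.6 FPKM in WT and at 16.8, 40.5 and 37.0 FPKM in Npr1+/-, with a log2 fold change of -0.40 (SE 0.38, edgeR, adjusted p = 0.999). Col4a6 (chrX:141165403-141474076) was at 22.6, 36.9 and 38.0 FPKM in WT and at 13.3, 29.8 and 33.1 FPKM in Npr1+/-, with a log2 fold change of -0.36 (SE 0.37, edgeR, adjusted p = 0.999). In both genes the libraries numbered 1 were the lowest of their genotype, as in the smooth muscle markers, and the other Npr1+/- libraries lay within the range of WT. Without Npr1+/- 1 the values were -0.11 for Col4a5 and -0.08 for Col4a6, and without both libraries numbered 1 they were -0.34 and -0.28. With the block, edgeR gave unadjusted p-values of 0.020 for Col4a5 and 0.019 for Col4a6. Col4a3 and Col4a4, known from the kidney filter, were at 0.94 to 2.52 and 1.64 to 4.39 FPKM. The type VIII chain Col8a1, made by endothelium and by migrating smooth muscle, was at 2.15, 3.30 and 2.02 FPKM in WT and at 2.08, 4.80 and 2.30 FPKM in Npr1+/-, and Col8a2 was at 0.59 to 1.49 FPKM.

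FACIT chains sit on the surface of fibrils, and as a class they showed the smallest shift, with 5 of 7 tested chains negative and a median of -0.03 on the log2 scale. Col14a1 (chr15:55307750-55520803), a chain of the adventitia and other fibroblast-rich tissue, was the most abundant of them. It was at 40.3, 43.5 and 30.0 FPKM in WT and at 20.3, 27.7 and 32.7 FPKM in Npr1+/-, so that WT 3 lay among the Npr1+/- libraries. The log2 fold change was -0.49 (SE 0.22, edgeR, adjusted p = 0.999, unadjusted p = 0.063 and 0.036 with the block). Over the same libraries the sum of 8 fibroblast markers was 1036, 1017 and 699 FPKM in WT and 631, 823 and 894 FPKM in Npr1+/-. Npr1+/- 1 was the lowest library in both, and WT 3 the lowest of WT. Only 4 of the 8 markers were lowest in Npr1+/- 1. In log2 CPM against the mean of the 6 libraries, the marker median was -0.38 in WT 3 and -0.26 in Npr1+/- 1, and Col14a1 was at -0.03 and -0.59. The part of fibroblast content in the result was not tested. Col16a1 was at 5.97 to 11.4 FPKM, Col12a1 at 1.54 to 2.46 FPKM, Col20a1 at 1.95 to 2.60 FPKM and Col19a1 at 0.69 to 2.62 FPKM, all with overlapping genotypes. In Col19a1 both libraries numbered 1 were low, at 0.73 and 0.69 FPKM, against 1.68 to 2.62 FPKM in the other 4. Col9a3 and Col22a1 were tested at mean levels of 0.277 and 0.155 FPKM.

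The type VI chains held the largest differences of the family in both directions. Col6a1, Col6a2 and Col6a3 form the filaments found in most tissues. Col6a1 (chr10:76708792-76726168) was at 124, 168 and 159 FPKM in WT and at 67.2, 132 and 137 FPKM in Npr1+/-, and Col6a2 (chr10:76595762-76623630) was at 153, 214 and 217 FPKM in WT and at 81.1, 169.7 and 165 FPKM in Npr1+/-. In both chains Npr1+/- 2 and 3 lay above WT 1 and below WT 2 and 3, and Npr1+/- 1 was far below all of them. The log2 fold change of Col6a2 was -0.49 (SE 0.33, edgeR, adjusted p = 0.999), and DESeq2 with the block gave -0.54 with an adjusted p of 0.036. That of Col6a1 was -0.43 (SE 0.30, edgeR, adjusted p = 0.999, unadjusted p of 0.026 with the block). Without Npr1+/- 1 they were -0.24 for Col6a2 and -0.19 for Col6a1, and without both libraries numbered 1 they were -0.38 and -0.30. Col6a3 was at 25.6, 44.0 and 43.5 FPKM in WT and at 17.4, 38.0 and 40.2 FPKM in Npr1+/-.

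Col6a5 and Col6a6 resemble Col6a3 and are thought to take its place in type VI collagen, and both are among the genes that the study picked out of these same libraries, so that their values here are no independent evidence. Col6a6 (chr9:105687809-105828160) was at 1.67, 1.70 and 1.00 FPKM in WT and at 0.79, 0.51 and 0.72 FPKM in Npr1+/-. All 3 Npr1+/- libraries were below all 3 WT libraries, as for 3.58% of all tested genes, with a mean CPM of 47.0% of WT. Its log2 fold change was -1.09 (SE 0.28, edgeR, adjusted p = 0.999), and its unadjusted p of 0.007 was the smallest of the family by edgeR, 0.004 with the block, where the adjusted p was 0.169. It was lower by a like amount without both libraries numbered 1, at -1.14 (SE 0.30, edgeR, adjusted p = 0.288). An exact two-sided permutation test of its log2 CPM gave p = 0.1, the smallest possible with 3 against 3 libraries. That p follows from the lack of overlap and adds nothing to it.

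Col6a5 (chr9:105856078-105960643) lies next to Col6a6 on the same strand with 27917 bases between them, and its values ran the other way. It was at 0.18, 0.02 and 0.08 FPKM in WT and at 0.81, 0.33 and 0.10 FPKM in Npr1+/-, so that Npr1+/- 3 lay within the range of WT. The log2 fold change was 2.17 (SE 0.95, edgeR, adjusted p = 0.999), and 1.19 (SE 0.90, edgeR, adjusted p = 0.999) without Npr1+/- 1, the highest library. Without both libraries numbered 1 it was 2.02, in a fit that keeps WT 2. The lowest library, WT 2, held 3.02 estimated counts of Col6a5, next to the floor of 3 counts. The log2 fold change was 1.68 without WT 2 and 2.985 without WT 1, so its size depended on libraries with few counts. The sequence before the start of each gene is shown since these neighbours had the largest differences of the family, in opposite directions. Capitals mark GGGCGG on either strand, and for Col6a6 the 175 bases that lie outside annotated exons are given.
Col6a5 (chr9:105960644-105960893, minus strand): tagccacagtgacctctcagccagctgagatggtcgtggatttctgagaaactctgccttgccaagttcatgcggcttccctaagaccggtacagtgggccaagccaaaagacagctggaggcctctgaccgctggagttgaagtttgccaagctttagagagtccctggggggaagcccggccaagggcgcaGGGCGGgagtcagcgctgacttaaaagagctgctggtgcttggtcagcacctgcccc
Col6a6 (chr9:105828161-105828335, minus strand): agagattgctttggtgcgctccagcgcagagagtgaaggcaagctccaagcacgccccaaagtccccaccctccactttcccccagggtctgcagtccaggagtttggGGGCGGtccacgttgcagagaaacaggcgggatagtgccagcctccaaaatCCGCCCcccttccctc
Both windows hold a GC box, and neither holds the other motifs searched.

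Of the other classes, the multiplexins went with the abundant chains. Col18a1 (chr10:77052178-77166548) was at 229.9, 378 and 413 FPKM in WT and at 149, 322 and 331 FPKM in Npr1+/-, with a log2 fold change of -0.35 (SE 0.40, edgeR, adjusted p = 0.999). Both libraries numbered 1 were its lowest. Without Npr1+/- 1 the value was -0.08, and without both libraries numbered 1 it was -0.29. Col15a1 was at 57.8, 78.5 and 74.2 FPKM in WT and at 33.7, 67.2 and 72.7 FPKM in Npr1+/-.

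The remaining chains were rare and had overlapping genotypes. Col28a1, a chain known from peripheral nerve and Schwann cells, was at 0.92, 0.72 and 0.36 FPKM in WT and at 2.57, 0.48 and 0.73 FPKM in Npr1+/-. Npr1+/- 1 was the single high library for Col28a1. It also had the highest sums of Schwann cell, neuron, adipocyte, mesothelium and endothelium markers. The part of these cell types in the Col28a1 values was not tested and cannot be told apart. The log2 fold change of Col28a1 was 0.98 (SE 0.68, edgeR, adjusted p = 0.999). It was -0.12 without Npr1+/- 1 and 0.14 without both libraries numbered 1. The transmembrane chain Col13a1 was at 0.29, 0.12 and 0.10 FPKM in WT and at 0.25, 0.54 and 0.16 FPKM in Npr1+/-, with a log2 fold change of 0.91 (SE 0.63, edgeR, adjusted p = 0.999). It was 0.28 without Npr1+/- 2, the highest library, and 1.48 without WT 1. Col23a1, another transmembrane chain, was at 1.52 to 1.83 FPKM in WT and 1.54 to 2.22 FPKM in Npr1+/-, with a log2 fold change of 0.24 (SE 0.21, edgeR, adjusted p = 0.999). Col7a1, the chain of the fibrils that anchor the epidermis, was at 0.24 to 0.57 FPKM with a log2 fold change of 0.10 (SE 0.38, edgeR, adjusted p = 0.999), and Col26a1 was at 0.52 to 0.86 FPKM.

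The 4 larger classes were all low in Npr1+/- 1 and high in WT 2. The deviation of a class from the mean of the 6 libraries is given as the median over its tested chains in log2 CPM. In Npr1+/- 1 this was -0.83 for fibrillar, -0.84 for network, -0.57 for FACIT and -0.86 for type VI chains, and the median of 8 smooth muscle markers was -1.08. The transmembrane and other chains, with 2 tested chains each, had positive medians in this library, at 0.27 and 0.89. The 0.89 came from Col28a1 at 1.73 and Col26a1 at 0.05. In WT 2 the median was 0.44, 0.29, 0.44 and 0.38 for the 4 larger classes in the order above, and 0.42 for the smooth muscle markers. In WT 3 the classes spread from -0.03 for FACIT to 0.38 for type VI. WT 1 had -0.07, -0.13, -0.08 and -0.04 for the classes but -0.37 for the smooth muscle markers, and it was high for adipocyte markers, at 1.13. The part of smooth muscle content in the collagen levels was not tested.

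**Figure D3:**
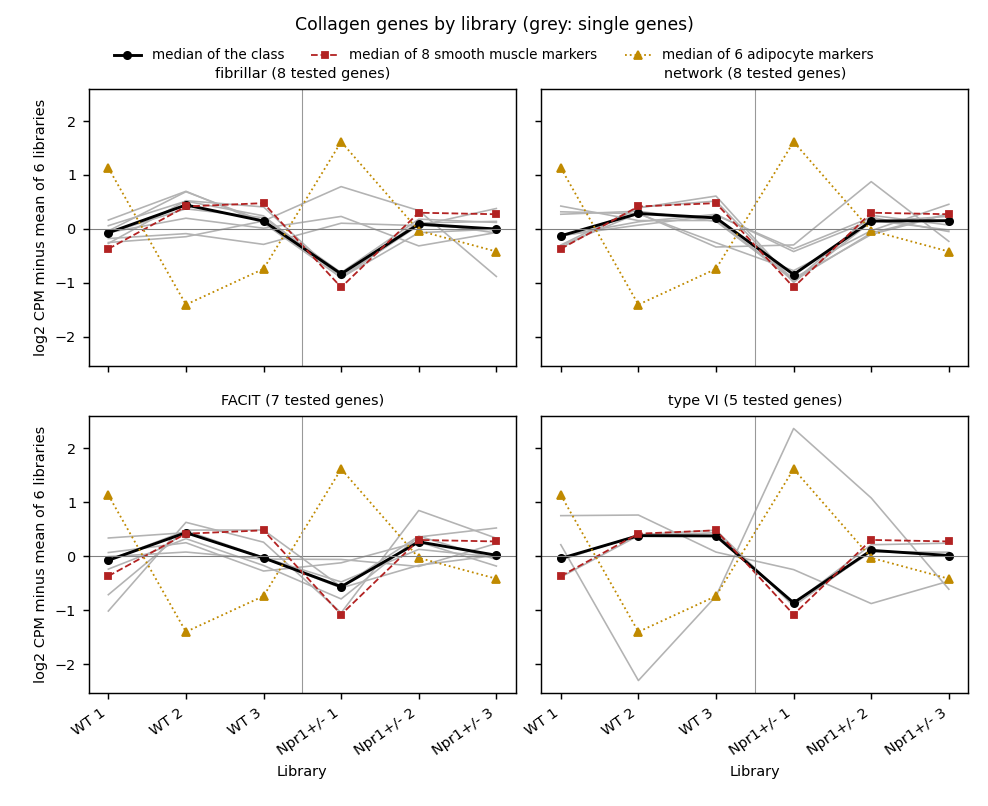
Log2 CPM of each tested gene of 4 collagen classes minus its mean over the 6 libraries (grey lines), with the median of the class in black, that of 8 smooth muscle markers in red and that of 6 adipocyte markers in ochre. Libraries are on the horizontal axis, WT left of the vertical line. In Npr1+/- 1 all 4 class medians are between -0.86 and -0.57, the smooth muscle median is at -1.08 and the adipocyte median at 1.61.

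As a share of the summed FPKM of a library, collagen genes made up 0.350%, 0.569% and 0.515% in WT and 0.216%, 0.425% and 0.411% in Npr1+/-. The means were 0.478% ± 0.114 and 0.351% ± 0.117 (SD, n = 3 each), and the genotypes overlapped through WT 1. Within each replicate number the share was lower in Npr1+/-. The log2 difference of the means was -0.45, and -0.19 without Npr1+/- 1 and -0.63 without WT 1. Within the collagen pool, the shares of the fibrillar, type VI and network chains varied less than this. Fibrillar chains took 38.6% to 47.3% of collagen FPKM in WT and 40.3% to 40.8% in Npr1+/-, and type VI chains took 16.8% to 18.8% and 16.0% to 17.6%. Network chains took 15.4% to 18.6% in WT and 18.2% to 22.7% in Npr1+/-, with the highest share in Npr1+/- 1. The rare transmembrane chains varied more widely, from 0.066% to 0.230% of collagen FPKM over all libraries. Col26a1 and Col28a1 together ran from 0.055% to 0.317%, and both of these shares were also highest in Npr1+/- 1.

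Partner chains of one collagen varied less in their ratio than in their own levels in 7 of 8 pairs. The ratio of FPKM was computed within each library for 8 of 11 known pairs, those whose rarer chain had a mean of at least 0.5 FPKM. Ratios of chains that are not partners were not computed, and all 15 abundant chains were lowest in Npr1+/- 1. A steady ratio is therefore not shown to be particular to partners. Col4a1 to Col4a2 stayed between 1.40 and 1.52, a range of 1.08-fold, while the chains themselves ranged over 1.54-fold and 1.62-fold. Col6a1 to Col6a2 stayed between 0.736 and 0.829, a range of 1.13-fold, against 2.50-fold and 2.67-fold for the chains. For type I collagen the ratio of Col1a1 to Col1a2 was 0.824, 0.870 and 0.698 in WT and 0.758, 0.697 and 0.766 in Npr1+/-, while the chains ranged over 3.20-fold and 2.79-fold.

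The other pairs were Col4a5 to Col4a6 (1.12 to 1.36), Col4a3 to Col4a4 (0.481 to 0.610), Col5a1 to Col5a2 (1.21 to 1.59) and Col6a1 to Col6a3 (3.39 to 4.86). Col8a1 to Col8a2 was the exception, with a ratio from 1.54 to 4.71 that ranged more widely than either chain. In no pair did the genotypes separate. The difference of the log2 ratio for Col8a1 to Col8a2 was 0.47, with WT at 1.09 ± 0.35 and Npr1+/- at 1.56 ± 0.83 (SD, n = 3 each, exact two-sided permutation p = 0.5), and 0.13 to 0.94 with 1 library left out, the lowest without Npr1+/- 2. Col6a1 to Col6a3 was lower in Npr1+/- within each replicate number (4.86 and 3.86, 3.81 and 3.48, 3.66 and 3.39), with a log2 difference of -0.19, and -0.07 without WT 1. Over the 8 pairs the exact permutation p-values were 0.3 to 1.0, and 0.64 to 1.0 after Benjamini-Hochberg adjustment.

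**Figure D4:**
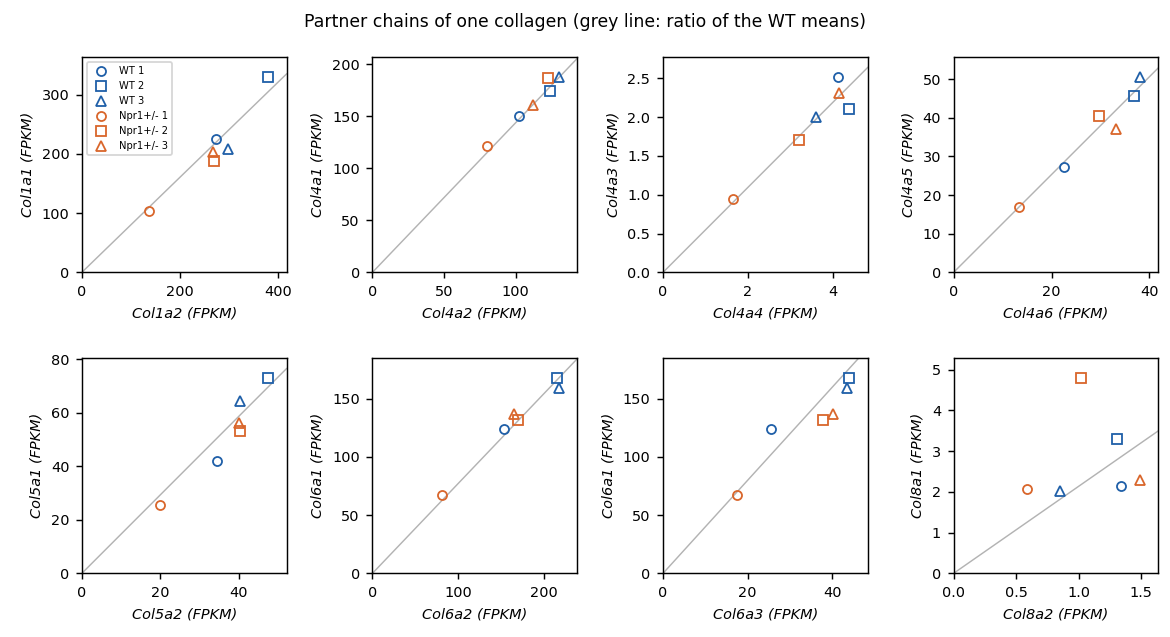
FPKM of 8 pairs of partner chains, with 1 chain on each axis, WT libraries in blue and Npr1+/- libraries in orange, and a grey line through 0 at the ratio of the WT means. Points lie along the line in the pairs Col4a1 and Col4a2 and Col6a1 and Col6a2, whose ratios range over 1.08-fold and 1.13-fold, and scatter for Col8a1 and Col8a2.

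Several partners also lie side by side in the genome. Of the 43 genes, 8 pairs of collagen neighbours were under 200000 bases apart in GENCODE M21. Col4a1 and Col4a2 overlap at their starts and point away from each other, with starts 21 bases apart in RefSeq, and Col4a3 and Col4a4 point away from each other with 71 bases between them. Col4a5 and Col4a6 do the same on chromosome X with 1308 bases between them. The strand of the reads is not stated in the sources used here, so that reads from the few shared bases of Col4a1 and Col4a2 cannot be told apart. Col3a1 lies 24614 bases from Col5a2, and Col6a2 lies 85161 bases from Col6a1.

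Upstream windows of 250 bases were found in RefSeq for 34 of the 43 genes, as 37 windows. Col1a1, Col5a2 and Col14a1 were among the genes without one. Many windows overlap annotated exons, and those of Col4a1, Col4a2, Col6a4 and Col20a1 lie wholly within them. Some starts, such as those of Col1a2 and Col25a1, lie inside the gene as annotated in GENCODE M21, so a window is not always sequence outside the gene. Both strands were searched. GGGCGG was in 22 of the 37 windows, or 59.5%, compared with 32.7% of all 32851 windows of the table and 55.3% of those of tested genes. CCAAT was in 12 windows (32.4%, against 33.9% of all and 34.9% of those of tested genes), TATAAA in 4 (10.8%, against 12.4% and 6.79%) and the CArG box, the motif of serum response factor in smooth muscle genes, in 1 (2.70%, against 1.47% and 1.18%). The median GC content was 59.2% for collagen genes as for tested genes, and 52.4% for all windows. None of the matches of different motifs overlapped.

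Collagen needs a set of enzymes and chaperones before it can form fibrils, and cells hold it through integrins and discoidin domain receptors. A list of 44 such genes was examined, of which 42 were tested and P4ha3 and Tll2 had too few counts. Of the 42, 35 had a negative log2 fold change (48.4% of all tested genes), with a median of -0.24. None was called by edgeR with or without the block (0.0% of all tested genes in each), or by DESeq2 with the block (1.81% of all genes). At an unadjusted p under 0.05, edgeR gave 0 of the 42 without the block (2.96% of all tested genes), and with it 5 lower (5.09%) and 3 higher (7.36%). Of the 42 genes, 30 had their lowest value in Npr1+/- 1 (29.6% of all tested genes).

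The crosslinking oxidases Lox, Loxl1, Loxl2, Loxl3 and Loxl4 were all negative, with a median of -0.31, and all 5 had their lowest value in Npr1+/- 1. Loxl2 was at 9.35, 17.7 and 12.5 FPKM in WT and at 7.96, 11.9 and 11.1 FPKM in Npr1+/-, with a log2 fold change of -0.34 (SE 0.26, edgeR, adjusted p = 0.999, unadjusted p of 0.031 with the block). All 10 receptors were negative, with a median of -0.32. Mrc2, which takes collagen up for breakdown, was at 16.4, 17.8 and 13.8 FPKM in WT and at 7.36, 11.3 and 14.1 FPKM in Npr1+/-. In normalized CPM its 3 Npr1+/- libraries were below all of WT (3.58% of all tested genes), and its log2 fold change was -0.55 (SE 0.23, edgeR, adjusted p = 0.999). Ddr2, a receptor kinase for fibrillar collagen, was at 25.2, 36.0 and 36.1 FPKM in WT and at 16.0, 28.7 and 27.8 FPKM in Npr1+/-, with a log2 fold change of -0.43 (SE 0.27, edgeR, adjusted p = 0.999).

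The hydroxylases did not share one direction. P4ha1, the catalytic chain of prolyl 4-hydroxylase, was at 36.5, 62.2 and 56.9 FPKM in WT and at 45.0, 97.1 and 70.1 FPKM in Npr1+/-, and was the higher in Npr1+/- for each replicate number. Its log2 fold change was 0.46 (SE 0.33, edgeR, adjusted p = 0.999, unadjusted p of 0.015 with the block), and that of P4ha2 was 0.35 (SE 0.32). Plod1, a lysyl hydroxylase, was at 30.6, 31.1 and 34.2 FPKM in WT and at 35.7, 46.1 and 38.1 FPKM in Npr1+/-, with all 3 Npr1+/- libraries above WT (3.9% of all tested genes) and a log2 fold change of 0.33 (SE 0.15). Plod2, the hydroxylase of the telopeptides, and P3h3 were negative at -0.28 (SE 0.37) and -0.35 (SE 0.29), with unadjusted p-values of 0.032 and 0.021 by edgeR with the block. Over the whole list of hydroxylation and glycosylation genes 10 of 14 were negative. Of the folding and export genes 5 of 6 were negative, the exception being the collagen chaperone Serpinh1, at 0.28 (SE 0.28, named after its value was seen), and of the propeptide cleavage genes 5 of 7 were negative.

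**Figure D5:**
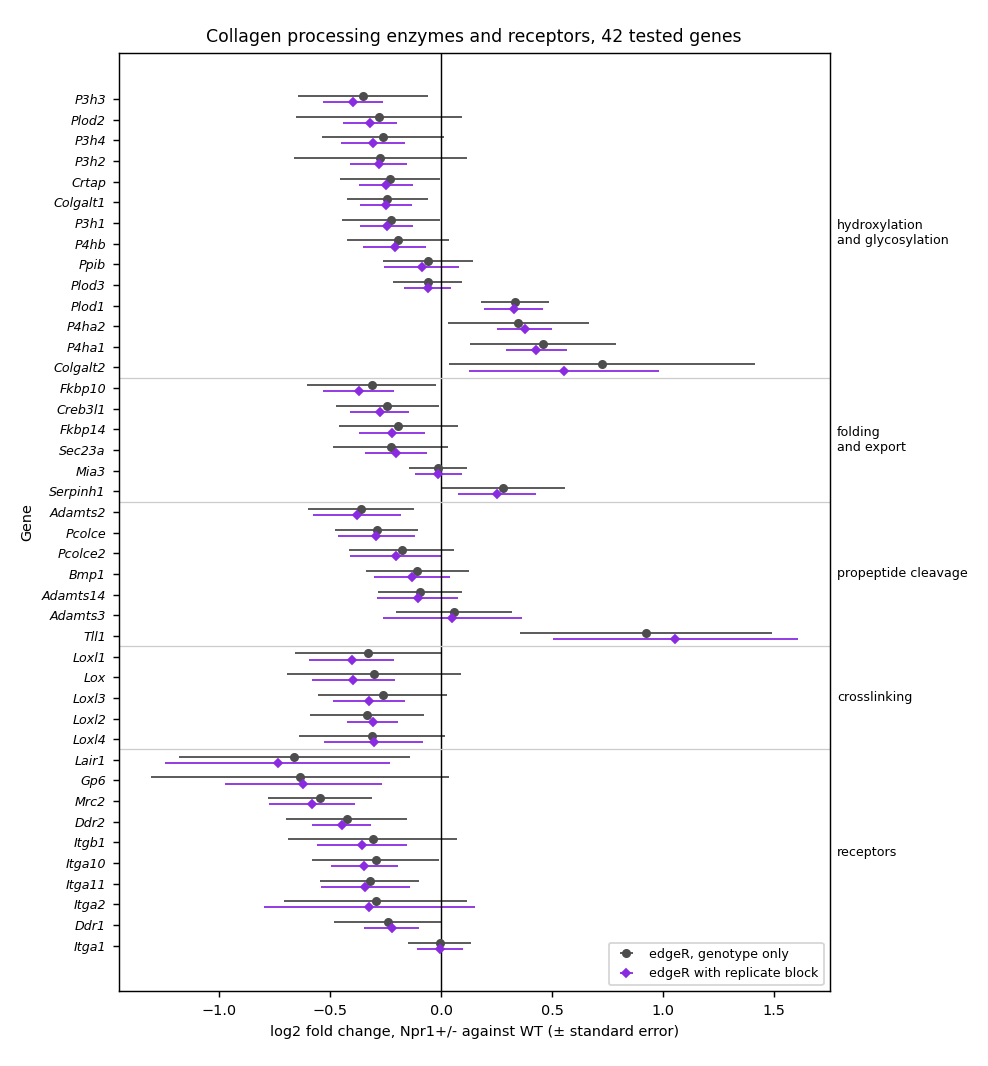
Log2 fold change of 42 tested collagen processing and receptor genes between Npr1+/- and WT by function, with bars of 1 standard error, from the edgeR fit with genotype alone (grey circles) and with the replicate block (purple diamonds). Points left of 0 are lower in Npr1+/-, as for 35 of the 42 genes, and all 5 crosslinking and all 10 receptor genes are left of 0.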

How the data were processed

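RNA of whole aortas from male mice was sequenced on a BGISEQ-500, as 3 WT and 3 Npr1+/- libraries. The authors filtered reads with SOAPnuke, aligned them to coding genes with Bowtie2 and estimated expression with RSEM, and the build in the submitters' processing notes is mm10. The authors deposited estimated counts, which are not normalized, and FPKM, scaled by transcript length and library size, for 18191 genes. The authors' mean columns were not used. RSEM divides a read that fits several genes, and 10 of the 43 collagen genes had an estimated count that was not whole. Symbols for 18070 genes came from RefSeq, coordinates from GENCODE M21 on GRCm38, and upstream sequences from RefSeq. The members and lists were chosen with earlier results of these data known.

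Estimated counts were rounded and tested in R 4.3.3 with edgeR 4.0.16 (TMM, filter with a minimum count of 10, quasi-likelihood test, Benjamini-Hochberg adjustment over 13938 genes). Genes were called at an adjusted p under 0.05 and a log2 fold change of at least 0.5 in size. Standard errors were derived from the F statistics. Levels are compared between genes in FPKM, and libraries within a gene in FPKM or TMM-normalized CPM. A prior count of 2 was used for log2 CPM. Single values were compared by exact two-sided permutation tests (scipy 1.17.1), which cannot give a p under 0.1 here. Alternatives were DESeq2 1.42.0, DESeq2 size factors, no filter, limma 3.58.1 on log2(FPKM + 0.1) for a mean FPKM of at least 0.1, the replicate block, and each library left out. Leaving out both libraries numbered 1 was added after seeing the data.

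The labels number the libraries of each genotype and do not say that equal numbers belong together. The block assumes that they do. Deviations of same-numbered libraries from their genotype's mean correlated at 0.645, 0.386 and 0.235 for numbers 1, 2 and 3. Such deviations sum to 0 within a genotype, so these correlations are not independent of each other. Differently numbered libraries correlated at -0.58 to 0.445, and WT 3 with Npr1+/- 2 (0.445) and WT 2 with Npr1+/- 3 (0.371) did so more than the libraries numbered 3, so that numbers 2 and 3 are not told apart by this check. Results with the block or within a replicate number rest on an assumed pairing. No libraries were duplicates, since at most 0.683% of genes over 20 counts were equal in any 2 libraries. A floor of 3 counts corresponds to 0.180 to 0.222 CPM, for counting error only. Statistics are given for the top chain of each class, chains with an unadjusted p under 0.05 with or without the block, the 5 chains with the largest change, chains whose genotypes do not overlap, and listed pathway genes by the same criteria. The scripts were tested on simulated counts.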

Additional observations from a re-analysis of the deposited data

How the results depend on the processing

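With the replicate block in edgeR, 11 collagen chains and 8 processing and receptor genes had an unadjusted p under 0.05 (12.4% of all tested genes). Without the block edgeR gave 1 and 0 (2.96%), and the block changed no call at an adjusted p. DESeq2 gave 3 and 1 (3.24% of all genes), and DESeq2 with the replicate block gave 15 and 10 (7.2%). The fit without both libraries numbered 1 gave 8 and 6 (11.5%), and the fit without a filter gave 1 processing gene. Leaving out 1 library gave 1 to 4 chains and 0 to 2 processing genes. For these fits and the fit without a filter no share over all genes was taken. Chains called were 4 by DESeq2 with the block (1.81% of all genes) and 0 elsewhere. The cause was not tested. Leaving out 1 library moved the median of the chains from -0.39 (without Npr1+/- 2) to -0.04 (without Npr1+/- 1), that of the fibrillar chains from -0.51 to -0.20, of the network chains from -0.51 to -0.06, of the type VI chains from -0.58 to -0.19 and of the FACIT chains from -0.32 to 0.04, and the number of negative chains from 21 to 26. Without both libraries numbered 1 the median was -0.14 for the chains, -0.32 for fibrillar, -0.10 for network, -0.30 for type VI and 0.03 for FACIT chains. The direction turned for Col28a1 and Col4a1 without Npr1+/- 1, and for Col7a1 without WT 3 (-0.07) or Npr1+/- 3 (-0.27). With 1 library left out, Col28a1 ran from -0.12 to 1.36, Col4a1 from -0.28 to 0.0028 and Col7a1 from -0.27 to 0.31. The log2 ratio difference of Col4a3 to Col4a4 ran from -0.0747 to 0.0974 and that of Col4a5 to Col4a6 from -0.0793 to 0.0639 with 1 library left out. Col13a1 was not tested without both libraries numbered 1. Depth limits the 15 chains under 1 FPKM, whose values rest on few counts.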
